A study of Mus musculus with 10 samples.

Results

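Histone lysine methylation enzymes were followed at the RNA level in left ventricular tissue of mouse hearts under pressure load. Genes were taken by symbol: every gene whose symbol starts with Kdm, Kmt, Setd, Suv39h or Ehmt, together with Ash1l, Dot1l, Nsd1, Nsd2, Nsd3, Smyd2 and Phf8, and without Kdm5c, Kdm5d and Kdm6a. The rule named 46 of the 45706 genes in the table, and 42 of these reached 1 CPM (counts scaled to a total of 1000000 in each library) in at least 5 of the 10 libraries. The 42 are part of the 12350 genes that passed the same filter. Suv39h2 stayed below it at 0.0939 to 0.757 CPM, Kdm4d reached at most 0.189 CPM, and Setd9-ps and Kdm4dl were at 0 in all 10 libraries.

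All hearts had undergone TAC, transverse aortic constriction, in which the aorta is tied partly shut so that the left ventricle pumps against a raised pressure. A group of 5 libraries came from TAC hearts given placebo, listed as vehicle, and a group of 5 from TAC hearts given osimertinib, a lung cancer drug that blocks the kinase of the EGF receptor. The sources used here give no strain, age, dose or duration, and no group without TAC was analysed here. Nothing says that the samples of a group are separate animals, so a p-value here reflects the spread among samples, which may be technical. The study's title ties the cardiac toxicity of the drug to histone deacetylases, and the comparison here asks whether RNA of the enzymes that place and remove histone methyl marks differed as well.

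Lysines in the tails and core of histones H3 and H4 carry methyl groups that writers add, with S-adenosylmethionine as donor, and erasers remove. Nearly all writers share a SET domain, Dot1l being the exception, and the erasers are either flavin-dependent amine oxidases (Kdm1a and Kdm1b) or JmjC dioxygenases that use iron, oxygen and 2-oxoglutarate. Methylation of H3K4 marks active promoters and enhancers, H3K36 and H3K79 methylation covers transcribed genes, and H3K9, H3K27 and H4K20 methylation is tied to silencing and compaction. Each gene was assigned to 1 class here, and residues outside its class were not counted. By residue the 42 genes held 6 writers and 4 erasers of H3K4, and 5 writers and 4 erasers of H3K9. A further 3 Kdm4 enzymes demethylate both H3K9 and H3K36, and H3K36 had 6 writers and 3 erasers. The rest were 1 eraser of H3K27, 1 writer of H3K79, 3 writers of H4K20, and 6 other proteins with a SET domain.

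Depth lay between 15863265 and 21309296 reads per library, and the 42 genes held from 13 estimated reads (Setdb2) to 1860 (Dot1l) in a library. Mitochondrial genes took 63.4% of placebo library 5, against 31.7% to 48.0% of the other 9 libraries. The deposited CPM carry no correction for this, so libraries were brought to a common scale with a median-ratio factor computed over the tested genes, 0.455 for placebo library 5 and 0.926 to 1.34 for the others, and levels below are such rescaled CPM. On the deposited scale the tested genes had a median log2 fold change of 0.27, and after rescaling of 0.01, so a fold change on the deposited scale is read against 0.27.

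Osimertinib hearts had lower RNA for 6 of the 42 enzymes after rescaling, Kmt2b, Kmt5c, Kdm3a, Setdb1, Dot1l and Kmt5b, and higher RNA for none. The 6 genes make 14.3% of the 42, against 10.5% of all genes tested that were called lower. No enzyme was called higher, against 10.4% of all genes. Fold changes lay below 0 for 31 of 42 enzymes (73.8%, against 48.9% of all genes), and their median was -0.17. Calls are an adjusted p under 0.05 from limma on log2(rescaled CPM + 0.5), with Benjamini-Hochberg adjustment over all 12350 genes, and all limma fold changes and standard errors (SE) below are on that scale. In the deposited CPM none of the 42 was called lower, where 0.13% of all genes were, and none higher, where 6.62% were. The median of the 42 stood at 0.10 on that scale, below the 0.27 of all genes. The fits without osimertinib library 3 or without osimertinib library 5 called none of the 42 lower, that without placebo library 2 called 1 and that without placebo library 1 called 2. The share of all genes called lower dropped in the same 4 fits, from 10.5% to 2.46%, 3.3%, 3.98% and 4.02%.

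**Figure D1:**
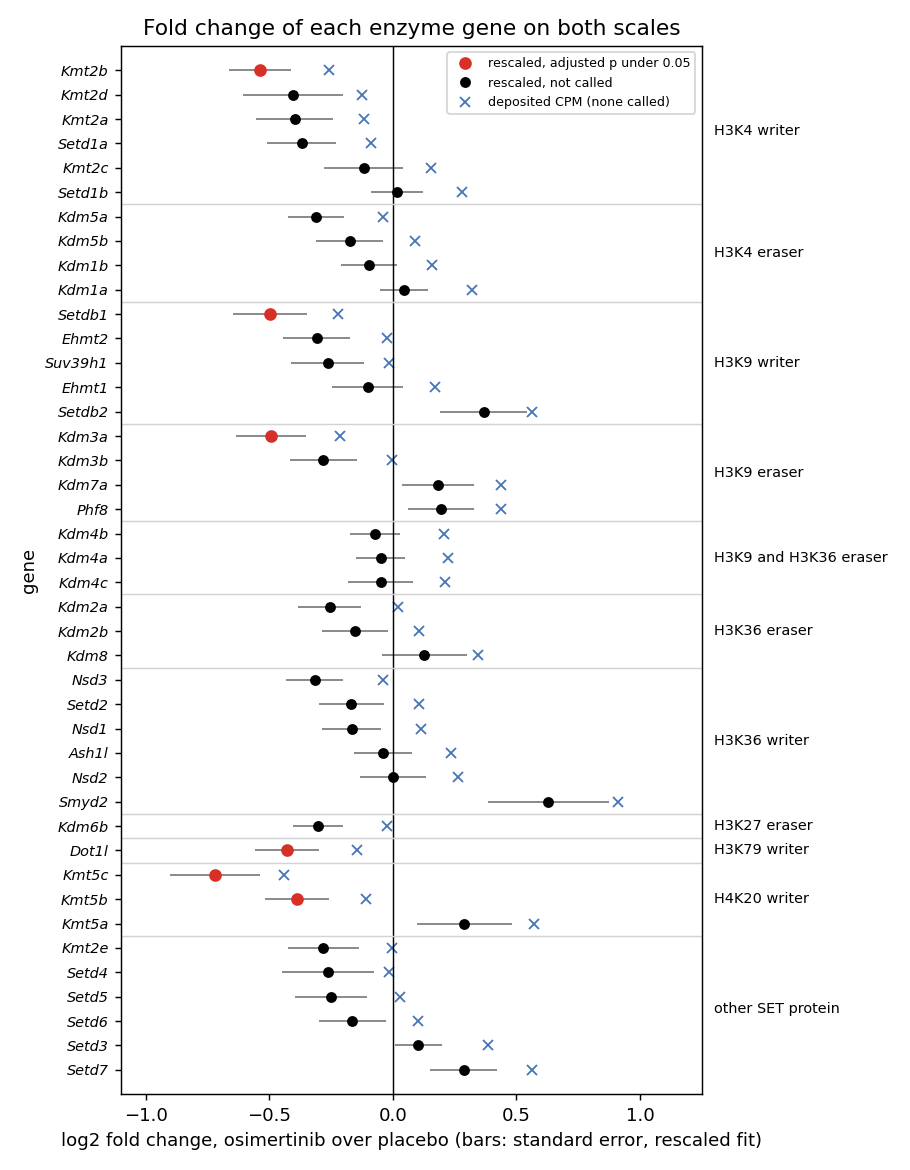
Log2 fold change of osimertinib over placebo (horizontal axis) for each of the 42 enzyme genes (rows, grouped by residue and role), with dots and SE bars from the rescaled values and crosses from the deposited CPM. The 6 red genes passed after rescaling and none passed in the deposited CPM, where the crosses lie to the right of the dots throughout.

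The regions just upstream of the fallen genes are shown because 5 of the 6 matched the RefSeq promoter table (GRCm38.p6). Each line gives the 250 bases before the start site (the outermost start where RefSeq lists several), 5′ to 3′ on the gene's own strand, with capitals for the GC box GGGCGG, the CCAAT box, the ETS core CGGAAG and the hypoxia response core ACGTG on either strand. In Kmt5b the reverse of an ETS core and of a GC box overlap.
Kmt5c, chr7:4739877-4740126, plus strand: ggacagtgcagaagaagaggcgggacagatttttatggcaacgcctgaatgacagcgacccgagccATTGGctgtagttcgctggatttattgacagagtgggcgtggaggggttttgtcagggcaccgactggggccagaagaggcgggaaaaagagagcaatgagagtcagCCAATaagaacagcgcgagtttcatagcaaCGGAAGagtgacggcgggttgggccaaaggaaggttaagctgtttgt
Setdb1, chr3:95357203-95357452, minus strand: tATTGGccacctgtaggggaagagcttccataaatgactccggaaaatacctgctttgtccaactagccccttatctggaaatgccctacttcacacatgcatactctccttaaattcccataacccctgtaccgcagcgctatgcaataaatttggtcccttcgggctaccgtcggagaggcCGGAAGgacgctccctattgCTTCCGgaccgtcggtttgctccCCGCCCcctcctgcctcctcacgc
Kdm3a, chr6:71632918-71633167, minus strand: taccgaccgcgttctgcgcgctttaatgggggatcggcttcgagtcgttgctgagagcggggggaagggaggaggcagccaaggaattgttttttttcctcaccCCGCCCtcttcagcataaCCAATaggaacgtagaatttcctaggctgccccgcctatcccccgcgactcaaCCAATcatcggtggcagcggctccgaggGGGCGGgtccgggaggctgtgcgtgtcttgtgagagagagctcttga
Dot1l, chr10:80754953-80755202, plus strand: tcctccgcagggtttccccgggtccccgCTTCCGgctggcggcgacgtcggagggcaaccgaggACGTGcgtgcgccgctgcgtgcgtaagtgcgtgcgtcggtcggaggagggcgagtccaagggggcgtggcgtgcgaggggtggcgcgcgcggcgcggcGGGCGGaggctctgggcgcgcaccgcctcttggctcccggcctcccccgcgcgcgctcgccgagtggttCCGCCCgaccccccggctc
Kmt5b, chr19:3767171-3767420, plus strand: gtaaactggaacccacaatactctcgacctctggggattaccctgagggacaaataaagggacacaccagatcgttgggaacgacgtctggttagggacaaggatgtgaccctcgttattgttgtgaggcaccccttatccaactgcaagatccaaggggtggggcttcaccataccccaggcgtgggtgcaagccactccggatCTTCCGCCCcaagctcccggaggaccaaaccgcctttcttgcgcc
The TATA box TATAAA lay in 0 of the 42 such windows that matched 30 of the enzyme genes, and in 12.4% of all 32851 windows in the table. The GC box was in 30 of the 42 windows (71.4%, against 32.7% of all windows), the CCAAT box in 17 (40.5% against 33.8%), CGGAAG in 11 (26.2% against 13.6%) and ACGTG in 9 (21.4% against 16.6%). The median window had 9.2 CpG per 100 bases and 66.4% GC, against 2.4 and 52.4% over all windows. Some genes have more than 1 window, and a match is only a run of letters. All windows here include genes that did not pass the filter, and windows of the tested genes alone were not compared.

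Among the H3K4 writers 1 of 6 fell and none rose, with a median log2 fold change of -0.38. Kmt2b, which trimethylates H3K4 at promoters (ENSMUSG00000006307, chr7:30568858-30588726, GRCm38), stood at 40.8, 46.1, 36.6, 41.1 and 52.2 rescaled CPM in placebo libraries 1 to 5 and at 35.2, 29.9, 24.6, 31.7 and 27.1 in osimertinib libraries 1 to 5. Every osimertinib library lay under every placebo library. The log2 fold change was -0.54 ± 0.13 (SE, adjusted p = 0.0187), the lowest p of the 42, and -0.26 in the deposited CPM (adjusted p = 0.692). Leaving out osimertinib library 3 or osimertinib library 5 ended its call (adjusted p up to 0.0571).

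Kmt2d, a writer of enhancer H3K4 monomethylation needed for heart development, was at 58.1, 50.6, 46.3, 47.4 and 25.5 rescaled CPM in placebo and 32.8, 42.1, 29.8, 36.2 and 26.7 in osimertinib. Placebo library 5 held the lowest value of all 10, and the groups overlapped through it. The log2 fold change was -0.40 ± 0.20 (adjusted p = 0.158), and -0.60 without placebo library 5, where Kmt2d was called (adjusted p = 0.0227). With transcript length and GC content corrected in each library it stood at -0.19 (adjusted p = 0.477). Kmt2a stood at -0.40 ± 0.16 (adjusted p = 0.0813) and Setd1a, a catalytic subunit of the SET1 complex, at -0.37 ± 0.14 (adjusted p = 0.0742). Setd1a was called without placebo library 4 or osimertinib library 1 (adjusted p = 0.0474 at the lowest), and stood at -0.25 with the length and GC correction (adjusted p = 0.155). Kmt2c (-0.12 ± 0.16) and Setd1b (0.02 ± 0.11) did not pass either. Thus 4 of the 6 writers had fold changes between -0.54 and -0.37, with 1 call, and between -0.37 and -0.19 with the length and GC correction.

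None of the 4 H3K4 erasers passed. Kdm5a, a JmjC enzyme that removes tri- and dimethyl groups, stood at 15.5, 17.1, 15.6, 15.3 and 12.2 rescaled CPM in placebo and 11.5, 13.9, 12.8, 11.6 and 10.6 in osimertinib. All 5 osimertinib libraries lay under the placebo mean, and placebo library 5 was the one placebo library within their range. Its fold change of -0.31 ± 0.11 missed the threshold (adjusted p = 0.0696) and was called only in the fit without placebo library 5 among those that left out a library (adjusted p = 0.0327). Kdm1a (LSD1), the amine oxidase of the CoREST repressor complex, was at 16.8, 18.6, 17.8, 17.9 and 20.03 rescaled CPM in placebo and 20.6, 19.4, 19.8, 16.4 and 17.9 in osimertinib. The groups overlapped fully, at a fold change of 0.04 ± 0.10 (adjusted p = 0.765). Kdm5b was at -0.17 ± 0.14 and Kdm1b at -0.10 ± 0.11.

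**Figure D2:**
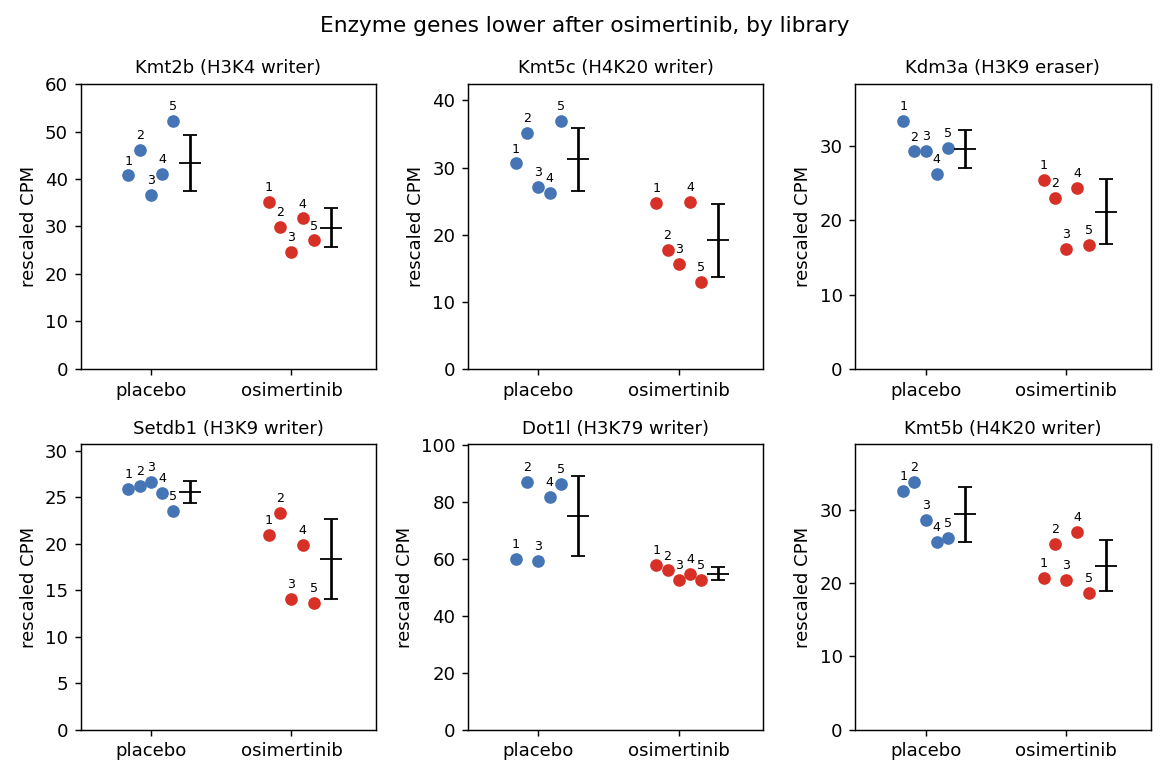
Rescaled CPM (vertical axis, from 0) of the 6 enzyme genes that fell, 1 point per library labelled with its number, blue for placebo and red for osimertinib, with the mean and SD of 5 libraries beside the points. Only Kmt5b has an osimertinib library, number 4 at 26.9, above a placebo library.

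Of the 5 H3K9 writers, 1 fell. Setdb1, which trimethylates H3K9 and silences retroelements with Trim28 (ENSMUSG00000015697, chr3:95323525-95357202), was at 25.9, 26.3, 26.7, 25.5 and 23.5 rescaled CPM in placebo and 21.0, 23.4, 14.0, 19.9 and 13.6 in osimertinib. Placebo libraries lay close together, osimertinib libraries 3 and 5 were lowest, and osimertinib library 2 came within a small margin of placebo library 5. The means were 25.6 ± 1.23 (SD, n = 5) and 18.4 ± 4.34, for a limma log2 fold change of -0.50 ± 0.15 (adjusted p = 0.0369; -0.22 deposited, adjusted p = 0.749). The call ended when any one of placebo libraries 1 to 4 or osimertinib libraries 3 and 5 was left out (adjusted p up to 0.0979). Setdb1 overlaps the gene Cers2 on the opposite strand (mean 53.05 deposited CPM). The part of Cers2 reads in the Setdb1 values was not tested.

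Ehmt2 (G9a), which with its partner Ehmt1 places mono- and dimethyl groups on H3K9 in euchromatin, stood at 72.5, 72.6, 62.6, 69.7 and 98.4 rescaled CPM in placebo and 71.5, 61.1, 52.0, 63.4 and 53.5 in osimertinib. Placebo library 5 was highest and the groups overlapped. Its fold change was -0.31 ± 0.14 (adjusted p = 0.116; -0.15 with the length and GC correction), beside -0.10 ± 0.14 for Ehmt1 and -0.26 ± 0.15 for Suv39h1, the writer of pericentromeric heterochromatin. Setdb2 was the one H3K9 writer with a positive fold change, 0.37 ± 0.18 (adjusted p = 0.146), and it rested on 13 to 60 estimated reads a library.

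The H3K9 erasers did not share a direction. Kdm3a, a JmjC eraser of mono- and dimethyl H3K9 that hypoxia is known to induce (ENSMUSG00000053470, chr6:71588972-71632990), stood at 33.4, 29.3, 29.3, 26.3 and 29.7 rescaled CPM in placebo and 25.5, 23.1, 16.2, 24.4 and 16.8 in osimertinib. The groups did not overlap, and osimertinib libraries 3 and 5 were again lowest. Kdm3a fell by 0.50 ± 0.14 on the log2 scale (adjusted p = 0.0329), against -0.22 in the deposited CPM (adjusted p = 0.752). Its call ended in 4 of the fits that left out 1 library, those lacking placebo 1, placebo 2, osimertinib 3 or osimertinib 5 (adjusted p up to 0.0881). Its relative Kdm3b was at 36.3, 38.0, 28.2, 30.2 and 24.0 rescaled CPM in placebo and 25.4, 27.97, 22.8, 28.1 and 23.0 in osimertinib. These ranges overlapped, at a fold change of -0.28 ± 0.13 (adjusted p = 0.143; -0.18 with the length and GC correction).

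Phf8 (0.19 ± 0.13, adjusted p = 0.309) and Kdm7a (0.18 ± 0.15, adjusted p = 0.382), related enzymes that pair a PHD finger with a JmjC domain, lay on the other side of 0 without passing. In both, placebo library 5 was the lowest library, at 3.72 rescaled CPM for Phf8 and 5.47 for Kdm7a. The Kdm4 enzymes, which act on H3K9 and H3K36 and of which Kdm4a is known to promote hypertrophy of the loaded mouse heart, had the narrowest range of fold changes among the classes with several members. Kdm4b was at 21.1, 21.8, 21.1, 21.4 and 25.8 rescaled CPM in placebo and 23.8, 20.4, 19.7, 19.1 and 22.6 in osimertinib, which overlapped (-0.07 ± 0.10, adjusted p = 0.634). Kdm4a and Kdm4c both came to -0.05 after rescaling (SE 0.10 and 0.13), and all 3 turned positive in the deposited CPM, at 0.21 to 0.22, under the 0.27 of all genes.

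No H3K36 writer or eraser passed. Smyd2, which methylates H3K36 and many proteins other than histones and is abundant in heart muscle, had the highest level per length of the 42, 17.4 rescaled CPM per kb of exon, and the largest positive fold change. It stood at 24.4, 31.4, 44.8, 48.0 and 33.8 rescaled CPM in placebo and 44.7, 53.9, 68.8, 34.8 and 87.6 in osimertinib. Osimertinib libraries 3 and 5 were highest, and libraries 1 and 4 lay within the placebo range. The fold change was 0.63 ± 0.25 (adjusted p = 0.0817), and 0.91 in the deposited CPM (adjusted p = 0.0772), and only the fit without osimertinib library 4 called it (0.79, adjusted p = 0.0344). Nsd3 was at -0.32 ± 0.12 (adjusted p = 0.0678), while Setd2, which alone is known to place most H3K36 trimethylation, was at -0.17 ± 0.13. Nsd1 was at -0.17 ± 0.12, Ash1l at -0.04 ± 0.12 and Nsd2 at 0.00 ± 0.13.

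Among the H3K36 erasers Kdm2a, a CpG island binding JmjC enzyme, was at 29.3, 36.8, 28.2, 31.1 and 22.6 rescaled CPM in placebo and 22.8, 27.8, 24.8, 25.3 and 21.8 in osimertinib. The ranges overlapped through placebo library 5 (-0.26 ± 0.13, adjusted p = 0.162). Kdm2b was at -0.16 ± 0.13 and Kdm8 at 0.13 ± 0.17. Kdm6b, the one gene classed here as an H3K27 eraser, stood at 30.7, 26.0, 24.4, 26.8 and 25.9 rescaled CPM in placebo. It was at 19.2, 20.6, 21.0, 24.3 and 23.0 in osimertinib. Its groups did not overlap, by the margin between placebo library 3 and osimertinib library 4, but its fold change of -0.30 ± 0.10 missed the threshold (adjusted p = 0.0516) and passed without placebo library 3 or osimertinib library 4 (adjusted p = 0.0415 at the lowest). Of 13 other processing settings 4 called Kdm6b, with limma adjusted p from 0.0325 (array weights) to 0.0484 (voom on estimated reads). The length and GC correction was not among those 4, and Kdm6b stood there at -0.14 (adjusted p = 0.341). Counting it, 6 of the 42 enzymes had groups that did not overlap, all lower in osimertinib, or 14.3% against 6.82% of all genes; none lay wholly higher, against 5.72%.

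Dot1l, the H3K79 writer that in mouse hearts is known to sustain dystrophin expression (ENSMUSG00000061589, chr10:80755206-80795461), stood at 59.98, 87.2, 59.4, 81.9 and 86.3 rescaled CPM in placebo and 57.9, 56.0, 52.7, 54.7 and 52.6 in osimertinib. The osimertinib libraries were close together at 54.8 ± 2.26 (SD, n = 5), whereas placebo libraries 2, 4 and 5 stood well above placebo libraries 1 and 3, which lay just over the osimertinib range. Dot1l fell by 0.43 ± 0.13 (adjusted p = 0.0390; -0.15 deposited, adjusted p = 0.84). Leaving out placebo library 1 or 3, or osimertinib library 1, kept its call (adjusted p up to 0.0959 in the other 7), and it was not called after correction for transcript length and GC content (-0.29, adjusted p = 0.111).

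Of the 3 H4K20 writers 2 fell. Kmt5c, which trimethylates H4K20 in heterochromatin (ENSMUSG00000059851, chr7:4740115-4747514), had the largest fall of the 42, from 30.6, 35.1, 27.1, 26.3 and 37.0 rescaled CPM in placebo to 24.7, 17.7, 15.6, 24.9 and 12.9 in osimertinib. The groups did not overlap, although osimertinib libraries 1 and 4 lay close under placebo library 4. Kmt5c came to -0.72 ± 0.18 on the log2 scale (adjusted p = 0.0232) and to -0.44 in the deposited CPM (adjusted p = 0.445). Leaving out any of 4 libraries, placebo 1 and 2 and osimertinib 3 and 5, ended its call (adjusted p up to 0.0677). Its paralogue Kmt5b, the main H4K20 dimethyl writer (ENSMUSG00000045098, chr19:3767421-3818303), was at 32.6, 33.8, 28.6, 25.6 and 26.1 rescaled CPM in placebo and 20.7, 25.3, 20.4, 26.9 and 18.6 in osimertinib. It passed narrowly with overlapping groups (-0.39 ± 0.13, adjusted p = 0.0496; -0.11 deposited, adjusted p = 0.886), and of the fits that left out 1 library only 3 called it, those lacking placebo 4, placebo 5 or osimertinib 4 (adjusted p up to 0.124 in the rest).

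Kmt5a, which places the first methyl group on H4K20, did not pass. It was at 49.7, 49.3, 80.7, 70.9 and 41.7 rescaled CPM in placebo and 63.2, 78.4, 78.3, 50.7 and 81.5 in osimertinib. The groups overlapped widely, at 0.29 ± 0.19 (adjusted p = 0.293). Its low libraries were placebo 1, 2 and 5 and osimertinib 4, as for Smyd2.

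The 6 other SET proteins had no call. Setd3, known as the histidine methyltransferase of actin, was at 52.5, 45.7, 56.0, 54.4 and 50.6 rescaled CPM in placebo and 53.6, 55.4, 58.9, 50.9 and 59.5 in osimertinib, overlapping and close in all 10 libraries (0.10 ± 0.10). Setd7, which methylates H3K4 and many other proteins, was at 16.8, 17.9, 13.3, 12.1 and 15.8 in placebo and 15.7, 22.1, 20.8, 16.9 and 17.6 in osimertinib. All 5 osimertinib libraries lay above its placebo mean, but the groups overlapped (0.29 ± 0.14, adjusted p = 0.138). Kmt2e (-0.28 ± 0.14), Setd4 (-0.26 ± 0.18), Setd5 (-0.25 ± 0.14) and Setd6 (-0.16 ± 0.14) lay below 0.

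**Figure D3:**
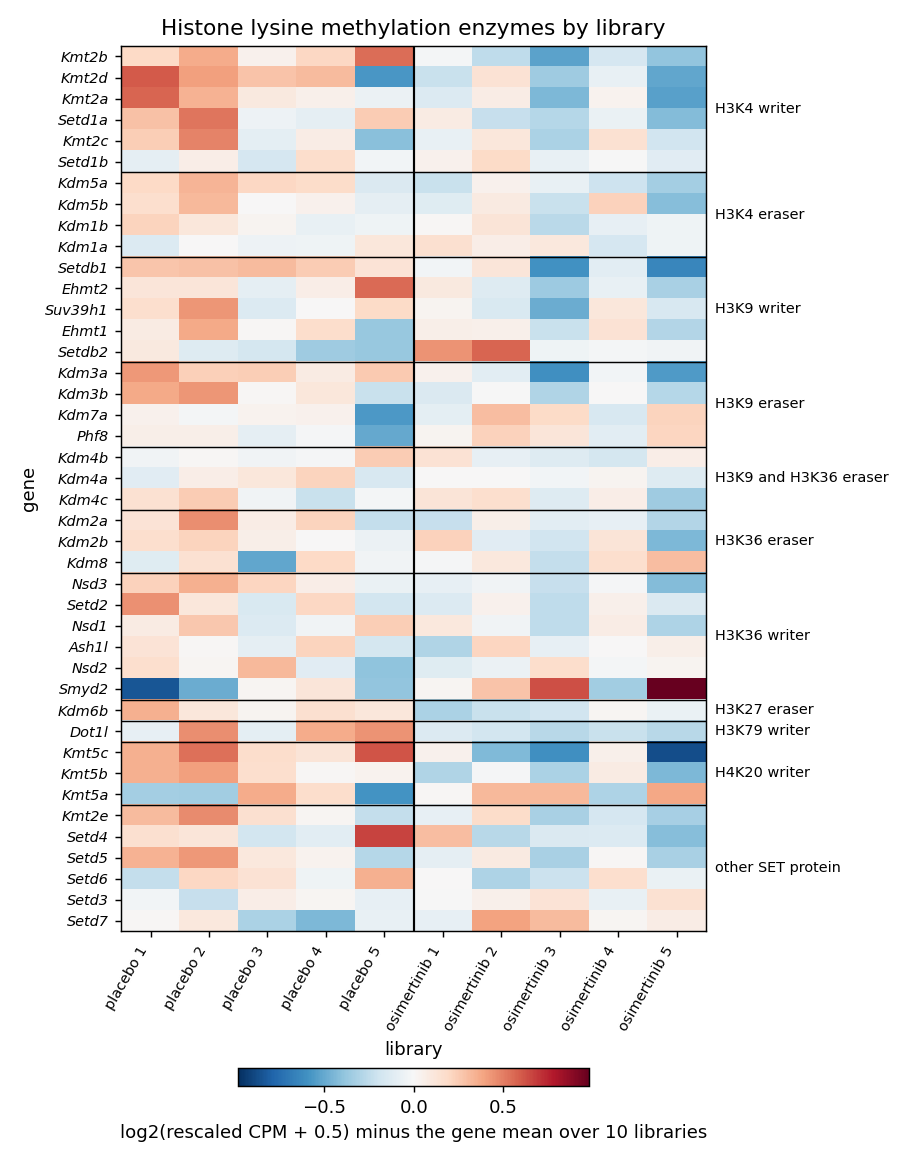
Level of each of the 42 enzyme genes (rows, by residue and role) in each of the 10 libraries (columns), as log2(rescaled CPM + 0.5) minus the gene's mean over the libraries, red above and blue below that mean. Osimertinib libraries 3 and 5 are mostly blue and placebo libraries 1 and 2 mostly red. Some genes, Smyd2, Kmt5a and Setd3 among them, run the other way.

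Many of the enzymes were low or high in the same libraries. Osimertinib library 3 had 34 of the 42 genes under their own median over the 10 libraries and osimertinib library 5 had 31, whereas placebo library 2 had 5 and placebo library 1 had 10. Osimertinib library 5 held the lowest value of 15 genes and placebo library 2 the highest of 15. Placebo library 5 was mixed, with the lowest value of 9 genes and the highest of 6, and 27 genes under their median, close to the 28 of osimertinib library 1.

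Writers and erasers of the same residue were then compared within each library, as the mean log2 level of the writers minus that of the erasers. Scaling between libraries cancels in this difference, and since the level itself mixes genes of different length, only its change between libraries is read. For H3K4 the difference was 1.29, 1.27, 1.08, 1.196 and 1.10 in placebo libraries 1 to 5 and 1.09, 1.03, 0.89, 1.14 and 0.95 in osimertinib. All 5 osimertinib libraries lay under the placebo mean of 1.19 ± 0.10 (SD, n = 5), but osimertinib libraries 1 and 4 fell within the placebo range. The difference between the groups was -0.17, made of -0.30 for the writers and -0.13 for the erasers. It shrank to -0.04 after correction for transcript length and GC content. Setd7, with a fold change of 0.29, was classed with the other SET proteins and was not counted among these writers.

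For H3K9, with the Kdm4 enzymes among 7 erasers, the difference was -0.16, -0.11, -0.23, -0.18 and -0.02 in placebo and -0.08, -0.16, -0.39, -0.12 and -0.35 in osimertinib. Osimertinib libraries 3 and 5 stood apart below and the other 3 lay within the placebo range, with a group difference of -0.08. For H3K36, with 6 writers and 6 erasers, it was 1.02, 0.86, 1.09, 1.02 and 0.89 in placebo and 0.88, 1.05, 1.14, 0.95 and 1.18 in osimertinib. These overlapped, at a group difference of 0.06, which became 0.22 when the levels of a class were summed before the log was taken. Among these writers Smyd2 had a fold change of 0.63 (mean 36.5 rescaled CPM in placebo, 57.9 in osimertinib). The other H3K36 writers lay between -0.32 and 0.00, and the difference without Smyd2 was not computed. Over all residues 5 of 21 writers and 1 of 15 erasers fell, where 10.5% of all genes did, with median log2 fold changes of -0.26 and -0.10 after rescaling (-0.02 and 0.16 deposited). No p is given for these class values, since the genes were chosen with results of these data known, and writers were not shown to differ from erasers.

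**Figure D4:**
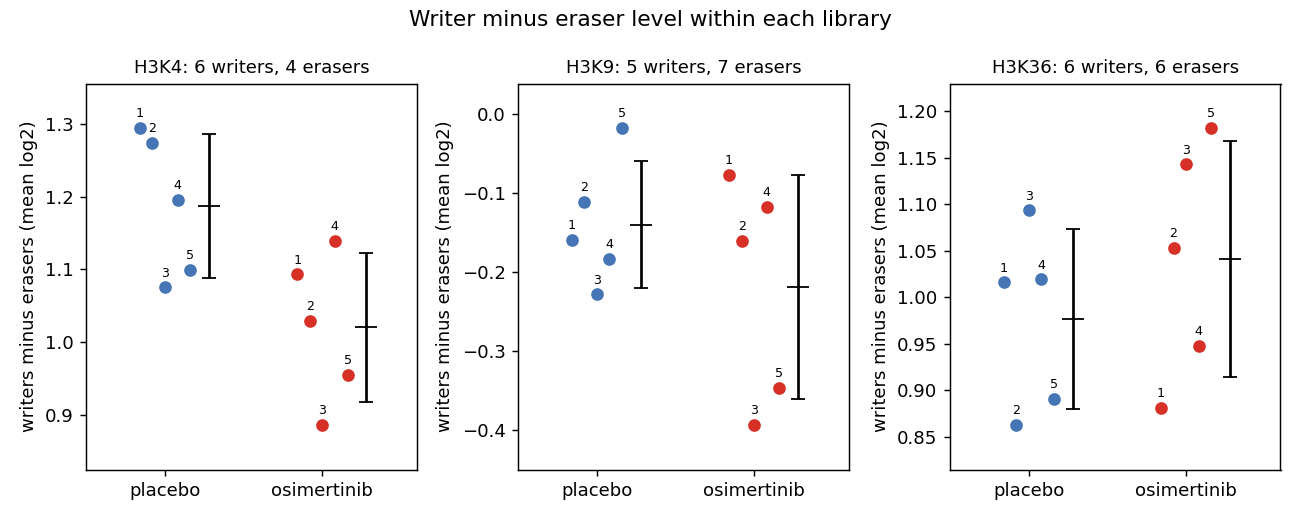
Mean log2 level of the writers minus that of the erasers (vertical axis) within each library for H3K4, H3K9 and H3K36, 1 point per library labelled with its number, with the mean and SD of 5 libraries. The groups overlap for each residue, and for H3K4 the osimertinib libraries, at 0.89 to 1.14, lie under the placebo mean of 1.19.

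Partners of these enzymes were counted on lists of genes known to work with them. Calls on these lists are read against the 10.5% of all genes called lower and 10.4% called higher after rescaling. Of 13 partners of the H3K4 writers, Cxxc1, the CpG-binding subunit of the SET1 complex, fell (-0.56 ± 0.15, limma adjusted p = 0.0290) and Dpy30, a core subunit of all the complexes, rose (0.55 ± 0.17, adjusted p = 0.0429), with a list median of -0.08. Of 13 CoREST and H3K9 repressor partners, those called included Hmg20b, a subunit of the CoREST complex, which fell (-0.56 ± 0.11, adjusted p = 0.0141), and the heterochromatin protein gene Cbx5, which rose (0.35 ± 0.10, adjusted p = 0.0357), with a median of -0.06. Among 13 other lysine methylation enzymes, Ezh1 and Ezh2 included, Smyd5 fell (-0.40 ± 0.10, adjusted p = 0.0248) and none rose, at a median of -0.04. None of the genes of these 3 lists was called lower or higher in the deposited CPM, where 0.13% and 6.62% of all genes were. The list medians were 0.19 to 0.22 on that scale, under the 0.27 of all genes.

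Of the 15 genes that supply the methyl donor or 2-oxoglutarate, 7 were called higher and 1 lower after rescaling (10.4% and 10.5% of all genes), at a list median of 0.46. Those called higher included Mat2b, a regulatory subunit of S-adenosylmethionine synthetase (0.53 ± 0.11, limma adjusted p = 0.0140), and Idh3a, a subunit of the isocitrate dehydrogenase that makes 2-oxoglutarate in mitochondria (1.06 ± 0.23, adjusted p = 0.0161). Of these 15 genes 5 were also called higher in the deposited CPM, Idh3a among them, where 6.62% of all genes were.

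Cell type markers differed between libraries as well. The 7 cardiomyocyte markers, all detected, summed to 12988 to 28566 rescaled CPM in placebo and 23109 to 37299 in osimertinib, with osimertinib libraries 3 (32513) and 5 highest and placebo library 1 lowest, and Actn2 was called higher. Macrophage markers summed to 133 to 194 and 188 to 251 (2 of 7 called higher, Adgre1 and Lyz2). Endothelial markers summed to 862 to 1402 and 866 to 1159, fibroblast markers to 448 to 839 and 607 to 1267, and smooth muscle and pericyte markers to 441 to 694 and 538 to 881, with none of 7 called in each. Of 7 lymphocyte markers 2 passed the filter, summing to 2.99 to 15.1 and 6.71 to 10.5. Of 7 atrial markers 6 passed, summing to 517 to 1412 and 710 to 4714, with none called and Bmp10 at 0 in all 10 libraries. In the deposited CPM 3 cardiomyocyte markers (Tnnt2, Actn2 and Myl2) and 3 atrial markers (Nppa, Dkk3 and Stard10) were called higher and none of the other cell markers was called. The part of these cell markers in the lower enzyme RNA was not tested, and in bulk tissue fewer cells of a type and less RNA per cell cannot be told apart.

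The enzymes are long transcripts, with a median exonic length of 9012 bases against 4499 over the tested genes. With length and GC content corrected in each library, 5 of the 42 were called lower, all but Dot1l of the 6, and none higher. In that fit 11.7% of all genes were called lower and 8.96% higher. The median of the 42 was -0.14, against -0.02 over all genes.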

How the data were processed

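RNA of 10 left ventricular samples was deposited by the authors as CPM, scaled to each library's own total with no factor between libraries. The design text names STAR with GRCm38 for alignment, RSEM for quantification and strand-keeping libraries; the submitters' processing notes instead name cutadapt 1.9, HISAT2 2.0.4, StringTie 1.3.4d, DESeq2 and the human build hg38. Sample groups came from the titles and columns from the library names.

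Depth came from the CPM worth of 1 read, the commonest low value in each library. Values under 200 reads were whole to 0.01 read in 90.7% to 93.3% of cases, so they are estimated counts and no count model was used as the main test. Every pair of libraries differed by more than counting noise (chi-square per degree of freedom of 22.6 or more over 45 pairs). Positions, exonic lengths and GC content came from GENCODE M21, which matched 98.8% of genes.

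Genes reaching 1 CPM in 5 or more libraries were rescaled by median ratios and tested with limma 3.58.1 (intensity trend, two-sided) on log2(rescaled CPM + 0.5). The procedure was tried beforehand on simulated data with planted changes larger than those of the called enzymes. Recovery of changes as small as theirs was not tested. The series text names limma with voom, run here as an alternative on the estimated reads. Members, lists and the choice of scale were made with earlier results of these data known. Every enzyme is named, and values in every library are given for the called ones and, per class, for the one with the highest mean CPM and the one with the largest fold change. Of the partner lists up to 3 called genes are named, the 3 with the lowest p, less some that are not reported here.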

Additional observations from a re-analysis of the deposited data

Results flagged for a closer look

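Among 90 groups of 5 values looked at, 4 held a value far from the other 4 of its group relative to the group's range, and chance marks about 1 in 20. All 4 were placebo library 5, the library with the highest share of mitochondrial reads. It was lowest of its group for Kmt2d (25.5 rescaled CPM, next 46.3), Kdm7a (5.47, next 8.21) and Phf8 (3.72, next 5.12) and highest for Kdm4b (25.8, next 21.8). The part of this library's composition in these values was not tested.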

How the results depend on the processing

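The count of 6 enzymes called lower was 0 in the deposited CPM, where 0.13% of all genes were called lower. It was 0 in the deposited CPM without placebo library 5 (2.09%) and 2 with no filter on low values (3.32%). Under the other planned settings it was 5 to 9 (9.31% to 13.3% of all genes). Over the fits that left out 1 library it was 0 to 8 (2.46% to 11.2%). The count called higher was 0 under each setting except 1 without osimertinib replicate 4 (0 to 1), where 11% of all genes were. Over all settings that share lay between 1.76% and 13.7%. The median fold change of the 42 turned from -0.17 to 0.10 in the deposited CPM and lay between -0.22 and -0.13 over the fits without 1 library. Writers minus erasers moved to -0.042 for H3K4 with the length and GC correction (-0.20 to -0.13 without 1 library) and to 0.22 for H3K36 on summed CPM (0.03 to 0.11), and lay at -0.12 to -0.04 for H3K9 without 1 library. The cause was not tested.

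Some fold changes changed sign. In the deposited CPM, where all genes shift from a median of 0.01 to 0.27, 14 did, Nsd1 (0.11), Kdm4b (0.21), Ash1l (0.23), Kdm4c (0.21), Kdm2b (0.11), Setd6 (0.10), Kdm4a (0.22), Setd5 (0.029), Ehmt1 (0.17), Kmt2c (0.15), Kdm1b (0.16), Kdm5b (0.091), Setd2 (0.11) and Kdm2a (0.022), and without placebo library 5 Kdm4b (0.017) and Nsd2 (-0.063). With the length and GC correction, with or without the replicate block, Kdm4b (0.055) and Kdm4a (0.011) did. Nsd2 did with quantile normalization (-0.022), a pseudocount of 2 (-0.00097), array weights (-0.036) and voom (-0.029), and Setd1b with quantile normalization (-0.012). Over the fits without 1 library Nsd2 (-0.097 to 0.079), Setd1b (-0.028 to 0.059), Kdm4c (-0.111 to 0.031) and Ash1l (-0.098 to 0.026) crossed 0.

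The samples share only replicate numbers. Deviations of same-numbered samples correlated at 0.43, 0.24, 0.46, -0.34 and -0.16, and not every sample correlated best with its own number. With the replicate block 9 enzymes were called lower (11% of all genes), and 5 with the block and the length and GC correction (11.6%). The lowest genes, such as Setdb2 at 13 to 60 estimated reads, are limited by depth.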
